A study of Arabidopsis thaliana with 12 samples.

Results

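A set of 6 Arabidopsis thaliana genes, tied by name or known role to drought, the hormone abscisic acid (ABA), osmotic stress, DNA damage, aluminium or peptide signalling, was compared between the flu mutant and wild type (WT). The 6 genes, DI21, RALFL32, DRT101, AILP1, XERICO and MAMI, were taken by name, and each was read from the 1 probe that the platform annotation assigns to that gene alone. They are 6 of 691 genes with a probe of their own, on an array of 3439 probes. All 6 passed the filter on dim probes, AILP1 through its WT arrays only.

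The flu group held 6 arrays of RNA from the flu mutant, which lacks the regulator FLU, and the WT group held 6 arrays of wild type, both of the Landsberg ecotype. All plants had spent 12 h in darkness and were harvested 30 min after the light came back on. The sources used here do not give the allele, the plant age, the organ or the light intensity, nor do they say that the RNA samples of a group were grown separately. The p-values therefore cover the spread among the arrays at hand, and that spread may be technical. There is a single time point, so each verb of direction compares flu with WT and describes no change after the light came on.

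FLU holds back chlorophyll synthesis in the dark. Without it the precursor protochlorophyllide builds up, and on illumination this pigment passes energy to oxygen and forms singlet oxygen in the plastid. ABA is the hormone that plants accumulate when they lose water, and it closes stomata and switches on protective genes. RALF peptides are small secreted signals that are perceived at the cell surface by receptor kinases such as FERONIA.

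Of the 6 genes, 3 fell in flu and the other 3 did not pass the test. DI21 was 2.52-fold, RALFL32 2.25-fold and DRT101 1.90-fold lower in flu than in WT. AILP1 was also dimmer in flu, whereas XERICO and MAMI were brighter, at 1.38-fold and 2.10-fold. XERICO and MAMI passed once flu and WT arrays of the same number were compared with each other, as described with their values. That fit passed 43.8% of all tested probes, 20.3% higher in flu, and its pairing by number was inferred from the values, not from a label. The main fit, with the group only, was by limma with Benjamini-Hochberg adjustment over all 3128 tested probes and a threshold of 0.05. In the main fit 38.9% of the probes passed, 17.5% higher and 21.4% lower in flu. Among the 620 tested genes that have their own probe, 36.8% passed, 16.9% higher and 19.8% lower. Set against that background, 3 of 6 genes passing, all lower, does not by itself mark the set out.

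**Figure D1:**
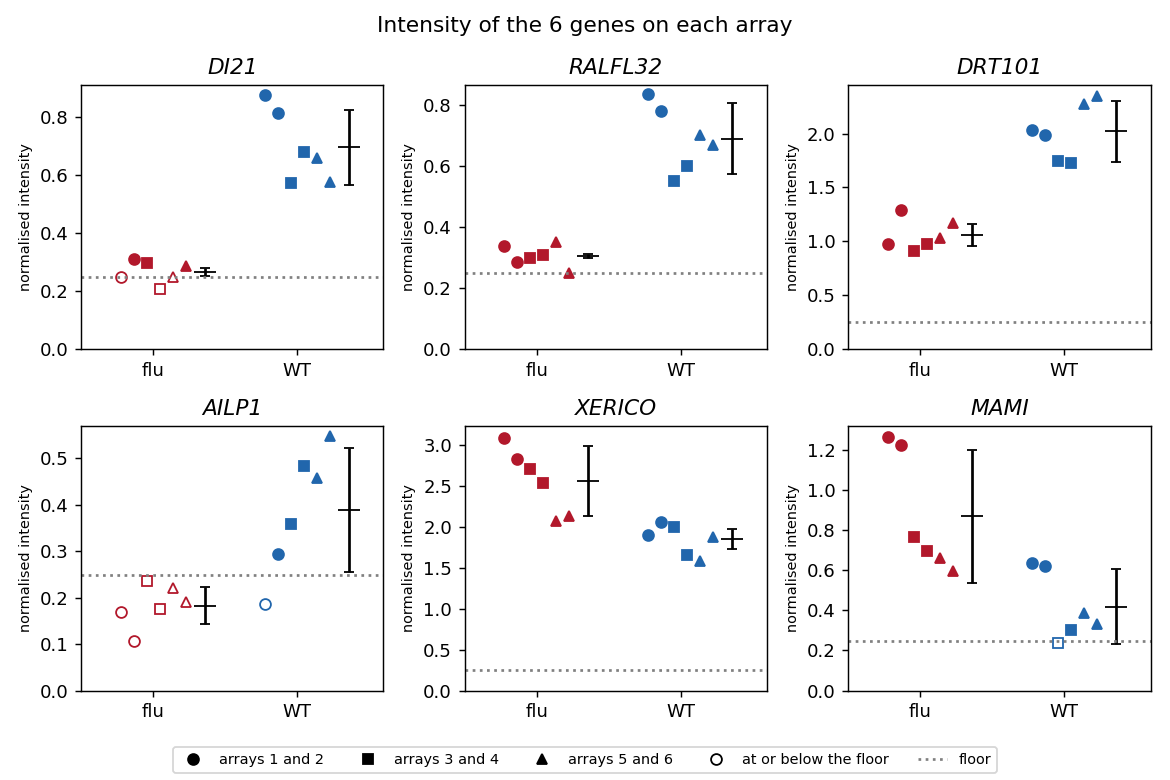
Quantile-normalised intensity (linear scale, y axis from 0) of the 6 genes on the 6 flu and the 6 WT arrays, with symbols marking arrays 1 and 2, 3 and 4, and 5 and 6; black bars are the mean ± SD of the 3 pair means, the dotted line is the floor of 0.2496, and open symbols lie at or below it. For DI21, RALFL32 and DRT101 every flu array lies under every WT array. In deposited intensities 26.2% of the 3128 tested probes show this separation. AILP1 is under the floor on all 6 flu arrays, and MAMI is highest on arrays 1 and 2 of both groups.

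The deposited intensities run from 0 to 100 on every array. The 6 flu arrays had medians of 0.426 to 0.442 and the 6 WT arrays medians of 0.443 to 0.491, and quantile normalisation removed this difference. Values under the 25th percentile of all normalised values, 0.2496, were raised to that floor before log2 was taken. Arrays 1 and 2, 3 and 4, and 5 and 6 of a group resembled each other, so each such pair was averaged and counted once, giving n = 3 pair means per group. The level of a probe also varied with its number in the table, and classes of probes that recur at a fixed step in the numbering held 33.9% of the variance of the log2 differences, where 272 classes without any effect would hold 8.67%. Values with the mean of the other probes of the same class subtracted are therefore given beside each gene, and by that fit 36.4% of all probes passed, 17.3% higher and 19.1% lower in flu. With a running median over neighbouring probe numbers subtracted in its place 39.1% passed. The labels name no organ. Of 9 listed green tissue markers 6 had their own probe, with summed normalised intensities of 34.8 to 40.9 on flu arrays and 38.1 to 46.5 on WT arrays. LHB1B2 and PSBW carry most of that sum; of the 6 markers 3 were brighter and 3 dimmer in flu, and 0 passed (limma adjusted p from 0.11 to 0.81). None of the 14 listed root, seed, pollen and phloem markers had a probe of its own, so the share of those tissues was not tested. Fewer cells of a type and less RNA per cell cannot be told apart in such whole samples.

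DI21 (AT4G15910, chromosome 4) is named for its induction by progressive drought and encodes a protein related to the late embryogenesis abundant proteins, which accumulate in drying tissue. Its deposited intensity ran from 0.187 to 0.282 on the 6 flu arrays with a median of 0.243. On the 6 WT arrays it ran from 0.581 to 0.871 with a median of 0.695. Every flu array lay under every WT array, with a gap wider than the range within flu. Of the 3128 tested probes, 26.2% showed this full separation with flu below. The normalised pair means were 0.280, 0.252 and 0.269 in flu and 0.845, 0.626 and 0.616 in WT. WT arrays 1 and 2 were the brightest, and the flu pairs lay close together near the floor. DI21 fell by 1.33 on the log2 scale (limma adjusted p = 0.0016, SE 0.15), and WT stood 1.95-fold to 3.25-fold above flu in the 95% confidence interval. Only 3 of the 6 flu arrays were above the floor, so the size of the fall depends on the floor. With the class mean by probe number subtracted it fell by 1.09 (limma adjusted p = 0.0022). With a running median over neighbouring probe numbers subtracted it fell by 1.44 (limma adjusted p = 0.00080). Of the 620 genes, 0.968% had a more negative log2 difference than DI21.

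RALFL32 (AT4G14010, chromosome 4) encodes a member of the RALF family of secreted peptides. The deposited intensity lay between 0.221 and 0.319 on the flu arrays, with a median of 0.286. The WT arrays lay between 0.586 and 0.838, with a median of 0.700. As with DI21 the groups did not overlap, a separation with flu below that 26.2% of tested probes showed. The same WT arrays, 1 and 2, were the brightest. Pair means were 0.313, 0.303 and 0.302 in flu and 0.807, 0.576 and 0.685 in WT (normalised intensity). All 6 flu arrays were above the floor, though the dimmest by little, at 0.252. RALFL32 fell by 1.17 on the log2 scale (limma adjusted p = 0.0021, SE 0.15), with WT 1.75-fold to 2.88-fold above flu in the 95% confidence interval. Both corrections for probe number shrank the fall of RALFL32, while that of DI21 shrank with the class mean only. RALFL32 fell by 0.74 with the class mean subtracted (limma adjusted p = 0.0065). With a running median over neighbouring probe numbers subtracted RALFL32 fell by 0.55 (limma adjusted p = 0.023). The 15 other probes of its class had a mean log2 difference of -0.43.

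DRT101 (AT5G18070, chromosome 5) carries a DNA damage repair and toleration name, and its protein is of the phosphoacetylglucosamine mutase type, which acts in the supply of the sugar nucleotide UDP-GlcNAc. Its deposited intensity was 0.906 to 1.28 on the flu arrays (median 0.970). On the WT arrays it was 1.73 to 2.38 (median 2.11). The groups did not overlap here either, as for 26.2% of tested probes with flu below. All 12 values were well above the floor, so the floor had no part in its fold. Normalised pair means were 1.14, 0.946 and 1.10 in flu and 2.01, 1.74 and 2.31 in WT. Unlike DI21 and RALFL32, DRT101 was brightest on WT arrays 5 and 6. It fell by 0.93 on the log2 scale (limma adjusted p = 0.0044, SE 0.15), with WT 1.49-fold to 2.44-fold above flu in the 95% confidence interval. With the class mean by probe number subtracted it fell by 0.68 (limma adjusted p = 0.0096), and with the running median by 0.52 (limma adjusted p = 0.030). Of the 620 genes, 10.2% had a more negative log2 difference.

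AILP1 (AT5G19140, chromosome 5) is annotated by its name as an aluminium-induced protein. Its deposited intensity was 0.0810 to 0.215 on the flu arrays, with a median of 0.157. On the WT arrays it was 0.202 to 0.551, with a median of 0.435. The groups overlapped through 1 array: WT array 1, at 0.202, lay inside the flu range. All 6 flu arrays were under the floor and 5 of the 6 WT arrays above it, so only a bound can be given. The mean WT log2 level stood 1.47-fold above the floor, so by the observed means AILP1 was at least that much lower in flu. This bound carries no error. In the fit on floored values, which did not pass, the 95% confidence interval put WT 1.04-fold to 2.26-fold above flu. Normalised pair means, before the floor, were 0.138, 0.206 and 0.205 in flu and 0.241, 0.421 and 0.502 in WT. The WT pair of arrays 1 and 2 was the dim one here, where DI21, RALFL32 and MAMI were brightest in WT.

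The floored log2 difference of AILP1 was -0.62 (SE 0.23) and did not pass (limma adjusted p = 0.079). With the whole flu group at the floor, its flu pair means have no spread and the test rests on the WT arrays. Of the 6 fits with a pair of arrays left out it passed in 1, without WT arrays 1 and 2, at -0.87 (limma adjusted p = 0.0073), and the other 5 gave a limma adjusted p of 0.17 to 0.18. It also passed with the floor at the 10th percentile, at -1.02 (limma adjusted p = 0.035), and with no floor and 0.1 added before log2, at -0.75 (limma adjusted p = 0.038). With the floor at the 40th percentile it stood at -0.22. No size corrected for probe number is read for AILP1, because the correction then acts on floored values in the whole flu group. A further probe lists AILP1 together with 2 other genes. It was under the floor on all 12 arrays and was not used.

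XERICO (AT2G04240, chromosome 2) encodes a small RING-H2 zinc finger protein, and plants that overexpress it accumulate ABA and tolerate drought. Its deposited intensity ran from 1.99 to 3.12 on the flu arrays with a median of 2.60. On the WT arrays it ran from 1.66 to 2.14 with a median of 1.93. The ranges overlapped: flu arrays 5 and 6 lay within the WT range. Set against the WT array of the same number, however, the flu array was the brighter in 6 of 6 cases, as it was for 21.6% of all tested probes. Normalised pair means were 2.95, 2.62 and 2.10 in flu and 1.98, 1.83 and 1.73 in WT.

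XERICO stood 0.46 higher in flu on the log2 scale (limma adjusted p = 0.060, SE 0.15), which did not pass. With the array number as a block the difference was the same with a smaller error (SE 0.13), and XERICO passed (limma adjusted p = 0.039). By that fit 43.8% of all probes passed, 20.3% higher in flu. The fold was 1.38, with a 95% confidence interval of 1.06 to 1.79 in the fit without the block. With the class mean by probe number subtracted the log2 difference was 0.85 (limma adjusted p = 0.0063, and 0.0072 with the block as well, by which 42.4% of all probes passed, 19.9% higher in flu), and with the running median it was 1.04. The 12 other probes of its class had a mean log2 difference of -0.39. With each pair of arrays left out in turn XERICO passed in 1 of 6 fits, without flu arrays 5 and 6, at 0.59 (limma adjusted p = 0.031). In the other 5 the limma adjusted p was 0.083 to 0.17.

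MAMI (AT5G54110, chromosome 5) stands for membrane-associated mannitol-induced, mannitol being a sugar alcohol used to impose osmotic stress. Its deposited intensity was 0.569 to 1.25 on the flu arrays, with a median of 0.720. It was 0.282 to 0.625 on the WT arrays, with a median of 0.378. The overlap came from WT arrays 1 and 2, at 0.625 and 0.617, which were above 1 flu array, number 6. Within each number flu was again the brighter in 6 of 6 cases, as for 21.6% of all tested probes. Normalised pair means were 1.24, 0.732 and 0.628 in flu and 0.627, 0.269 and 0.359 in WT. Arrays 1 and 2 were the brightest in both groups, and MAMI had the widest spread of log2 pair means of the 6 genes, with SDs of 0.52 in flu and 0.61 in WT.

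MAMI stood 1.07 higher in flu on the log2 scale (limma adjusted p = 0.071, SE 0.38), which did not pass, and the 95% confidence interval of its fold ran from 1.10 to 3.999. With the array number as a block the SE was 0.16 and MAMI passed (limma adjusted p = 0.0069). So did 43.8% of all probes by that fit, 20.3% higher in flu. Its difference hardly moved with probe number: 1.02 with the class mean subtracted (limma adjusted p = 0.018, and 0.0030 with the block as well). With each pair of arrays left out in turn it passed in 1 of 6 fits, without WT arrays 1 and 2, at 1.40 (limma adjusted p = 0.041). In the other 5 the limma adjusted p was 0.095 to 0.20. Of the 620 genes, 8.71% had a larger log2 difference than MAMI, and 23.1% a larger one than XERICO.

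**Figure D2:**
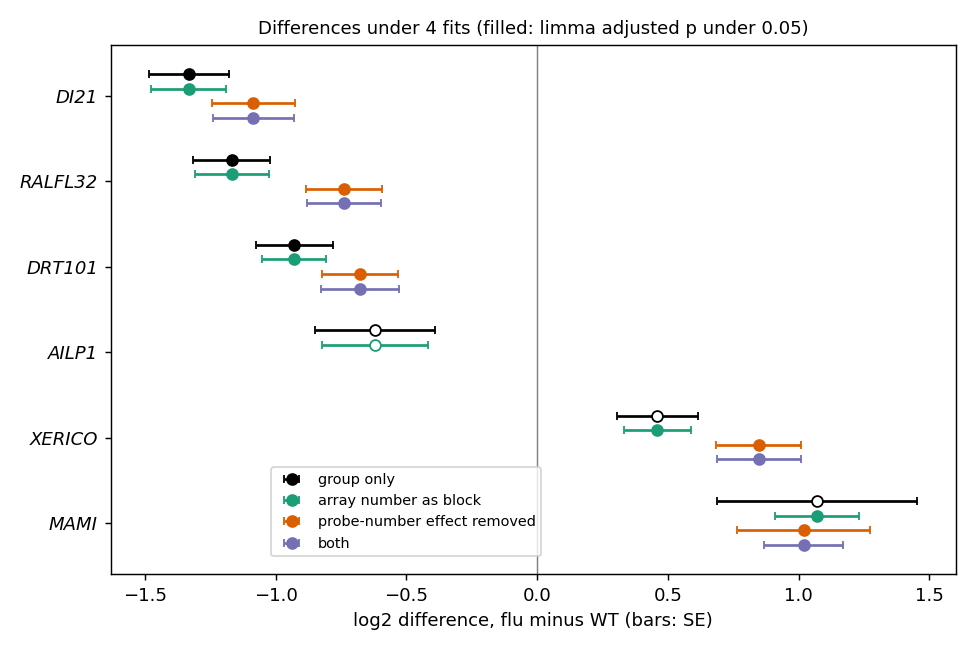
Log2 difference, flu minus WT (x axis, bars are SE), of the 6 genes (y axis) under 4 fits: group only, array number as a block, probe-number effect removed, and both; filled symbols have a limma adjusted p under 0.05, and AILP1 is shown for the first 2 fits only. DI21, RALFL32 and DRT101 are filled in all 4 fits, and XERICO and MAMI in every fit but the one with the group only.

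The 3 numbers gave like differences for most of the genes. The same-number differences in log2 were -1.60, -1.20 and -1.20 for DI21, and -1.37, -0.93 and -1.20 for RALFL32. They were -0.84, -0.88 and -1.07 for DRT101. For XERICO they were 0.58, 0.52 and 0.28, and for MAMI 0.99, 1.41 and 0.81. AILP1 was the uneven one, at -0.12, -0.74 and -1.002. DI21, RALFL32, DRT101, XERICO and MAMI thus kept their sign over the 3 numbers. With every flu array at the floor, the floored difference of AILP1 could not be positive, so its sign carries no information. In deposited intensities, without the floor, DI21, RALFL32, DRT101 and AILP1 were dimmer in flu in 6 of 6 same-number comparisons of single arrays. The same held for 38.2% of all tested probes.

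**Figure D3:**
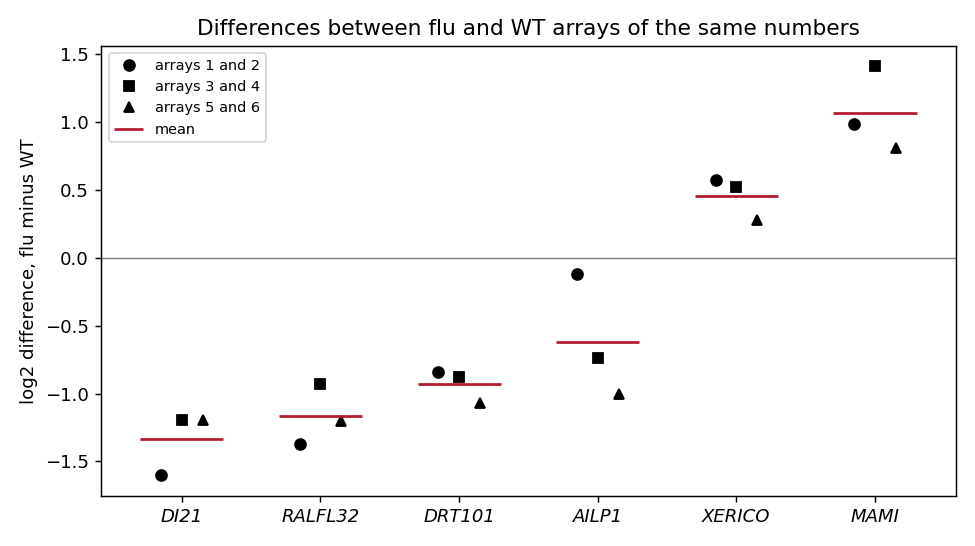
Log2 difference between the flu and the WT pair mean of the same array numbers (y axis) for each of the 6 genes (x axis); symbols mark the array numbers and the red line their mean. All 12 points of DI21, RALFL32, DRT101 and AILP1 lie below 0 and all 6 points of XERICO and MAMI above it, from 0.28 to 1.41. The points of AILP1 could not lie above 0, because all its flu arrays were set to the floor. The genes were grouped with these directions known.

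XERICO and MAMI were set against DI21, RALFL32, DRT101 and AILP1 as a description, since the members were grouped with their directions known. The log2 difference of XERICO exceeded that of DI21 by 1.79 (SD 0.35 over 3 numbers), that of RALFL32 by 1.63 (SD 0.28) and that of DRT101 by 1.39 (SD 0.031). MAMI exceeded DI21 by 2.40 (SD 0.34), RALFL32 by 2.24 (SD 0.20) and DRT101 by 1.999 (SD 0.25). DI21 was above the floor on only 3 of 6 flu arrays and MAMI on 5 of 6 WT arrays. The values that involve DI21 or MAMI, and their SDs, thus depend in part on the floor. No such value is given against AILP1, whose flu level is only a bound. A scaling factor common to all probes of an array cancels in the values of genes above the floor. The median log2 difference of the 6 genes was -0.77, against -0.04 over the 620 tested genes. It rests in part on the floored value of AILP1, and the members were chosen with earlier results known. No shift of the set is therefore read from it.

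**Figure D4:**
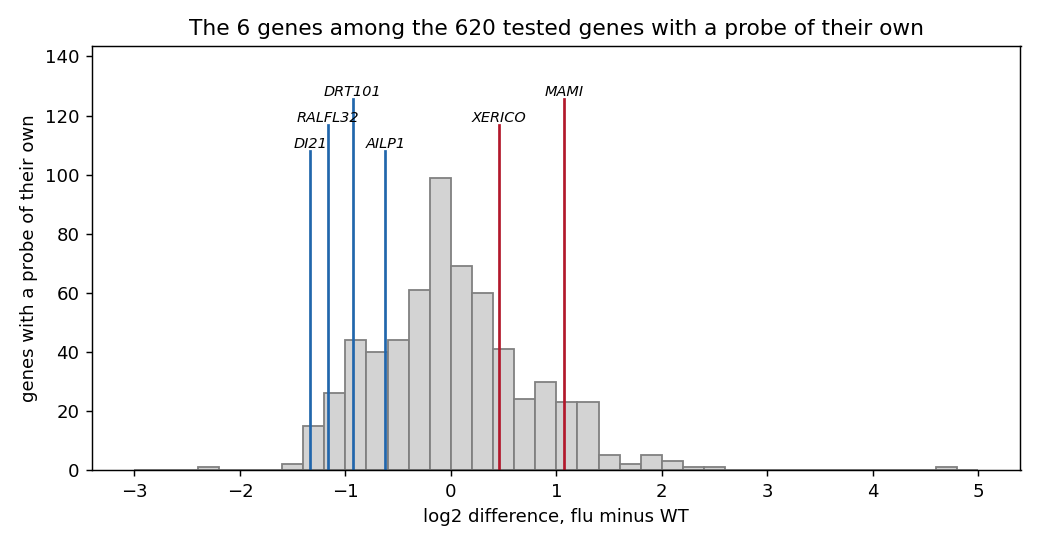
Histogram of the log2 difference, flu minus WT (x axis), of the 620 tested genes with a probe of their own (y axis, number of genes), with lines at the 6 genes in blue where flu is lower and in red where it is higher. DI21, at -1.33, lies near the lower end of the histogram, while XERICO, at 0.46, and AILP1, at -0.62, lie among many other genes.

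Across the 12 arrays the floored log2 levels of DI21, RALFL32 and DRT101 varied together, with Pearson r of 0.95 for DI21 with RALFL32, 0.92 for DI21 with DRT101 and 0.90 for RALFL32 with DRT101. XERICO and MAMI had r of 0.83 with each other. These values share the difference between the groups, and arrays share pairs. Once the group means were subtracted, r was 0.36, 0.17 and 0.051 for the first 3 pairs of genes and 0.59 for XERICO with MAMI. MAMI then had r of 0.66 with DI21 and 0.69 with RALFL32, although its difference between flu and WT has the opposite sign. No such r is given for AILP1, which had 1 constant floored value on all 6 flu arrays.

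Other genes were ranked by their likeness to each of the other 5 members, as Pearson r of floored log2 levels over the 12 arrays, among 483 other genes above the floor on at least 8 arrays. Closest to DI21 were AT1G03810 (r = 0.98) and AT1G04420 (0.97), and AT1G03810 was also among the closest to RALFL32 (0.97), with AT1G15140 (0.97). For DRT101 they were AT2G46910, of the fibrillin type (0.97), and LPA19, an assembly factor of photosystem II (0.97). For AILP1 no likeness is read, since its flu values are all at the floor. XERICO was closest to AT5G52530 (0.93) and AT1G73470 (0.89), and MAMI to AT4G25290 (0.95) and AT1G22850 (0.94). With the group means subtracted, r was highest for AT1G22850 with MAMI (0.925) and lowest for AT1G03810 with DI21 (0.60).

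Other genes of these pathways were sought by words in gene symbols and synonyms only. Few with a probe of their own were found. Among the genes found by annotation words, SIS, named as salt-induced and serine-rich, was the 1 other gene for ABA and water stress and stood at a log2 difference of -0.06 (limma adjusted p = 0.76, SE 0.13). Its normalised pair means were 0.221, 0.236 and 0.290 in flu and 0.163, 0.298 and 0.282 in WT, around the floor in both groups. DRT100, which shares the repair and toleration name with DRT101, was under the floor on all 12 arrays and was not tested. CCS, the copper chaperone of superoxide dismutase, was found through the word mutase, and it stood at -0.10 on the log2 scale (limma adjusted p = 0.57, SE 0.13). It was above the floor on 1 of 6 flu and 3 of 6 WT arrays, so that difference is largely set by the floor. Thus 0 of the 2 further genes tested passed by limma (unadjusted p of 0.67 and 0.45), where 36.8% of the 620 genes did, and a count over 2 dim genes says little. The words for peptide and receptor signalling and for membrane association found no gene but RALFL32 and MAMI. Those for RING and ubiquitin and for auxin and aluminium found none. These last words missed even XERICO and AILP1, so the search was incomplete and does not show which such genes the array holds.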

How the data were processed

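RNA abundance was measured on 12 arrays, 6 of flu and 6 of WT. The deposited table gives 1 intensity per probe and array on a linear scale; per the file's values each array runs from 0 to 100. The sources used here do not give the scanner, background correction or scaling, and the number of arrays limits the precision. Arrays were quantile normalised, floored at the 25th percentile (0.2496) and log2 transformed. No test was made of the 311 probes that never exceeded the floor, and 3128 remained.

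Deviations from the group mean correlated at 0.21 to 0.68 within arrays 1 and 2, 3 and 4, and 5 and 6 of a group, and at -0.55 to -0.04 for other arrays of a group. Each pair may be a repeat of 1 sample and was averaged. The plan allowed for this. With the group means subtracted, pair means of the same number in flu and WT correlated at 0.26 to 0.46, and those of different number at -0.36 to 0.05. Such deviations cancel within a group, so a positive r for some pairs lowers the r of the others. The numbers may therefore pair the samples. The evidence is in the values alone and no label states it. The fit with the group alone is the main one, and the fit with the number as a block is given where it changes a call.

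Differences were tested two-sided with lmFit and eBayes of limma 3.58.1 (R 4.3.3), with Benjamini-Hochberg adjustment over all tested probes and a threshold of 0.05, after a check on simulated data. Of the 3439 probes, 692 list 1 gene in the platform annotation (its symbols may be outdated), 870 several and 1877 none. Of the 692, 690 were matched to the TAIR10.1 gene table, which gave the locus and chromosome. The sources used here do not name the genome build of the probes, and no positions are printed. For FLU itself the annotation holds 0 probes, and the labels could not be checked on its transcript. Besides the 6 genes, the text names the 2 genes most like each, except for the floored AILP1, and the genes found by annotation words. The members and lists were chosen with earlier results of these data known. Alternatives changed the scaling, the floor, the filter, the replicate unit, the block and the correction for probe number.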

Additional observations from a re-analysis of the deposited data

How the results depend on the processing

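DI21, RALFL32 and DRT101 kept their direction and passed under all 20 alternatives each, with log2 differences of -1.44 to -0.92, -1.31 to -0.55 and -1.03 to -0.52. No alternative reversed any of the 6 genes. Where all its flu arrays were at the floor and probe number was not corrected for, AILP1 could not reverse. The other 3 failed under most: AILP1 passed under 8 of 19 alternatives (3 of them corrections for probe number), XERICO under 7 of 20 and MAMI under 9 of 20. With the 12 arrays taken as separate their log2 differences were -0.62, 0.46 and 1.07 and all 3 passed (limma adjusted p = 0.0078, 0.0039 and 0.0047), as they did with the array pair as a random block (0.030, 0.026 and 0.0085). With the replicate block XERICO (0.46) and MAMI (1.07) passed and AILP1 did not (limma adjusted p = 0.060); it changed no other call among the 6. With the mean by class of probe number subtracted XERICO and MAMI stood at 0.85 and 1.02 and passed, with or without the replicate block, the combination being chosen after seeing the data. With the running median subtracted they stood at 1.04 and 1.03 and passed. For AILP1 these corrections gave -1.26 and -1.66 under the threshold, but they act on floored flu values and are not read as a size or a call. AILP1 also passed with the floor at the 10th percentile (-1.02), and with 0.1 added in place of the floor AILP1 (-0.75) and MAMI (0.91) passed. Testing only probes above the floor on at least 6 arrays left MAMI at 1.07, now passing (limma adjusted p = 0.041), and AILP1 untested. Leaving out each pair of arrays gave log2 differences of -0.87 to -0.43 for AILP1, 0.35 to 0.59 for XERICO and 0.78 to 1.40 for MAMI, and each passed in 1 of the 6 fits, with limma adjusted p up to 0.18, 0.17 and 0.20 in the other 5. The count of probes past the threshold, 1216, ran from 840 to 1732 over the 20 alternatives. Without quantile normalisation 36.9% of the calls were higher in flu, against 45.0%, and the median of all probes shifted by -0.08. The floor limits what can be read of AILP1 and of DI21 in flu.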
